A study of Mus musculus with 6 samples.

Results

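Neuritin (Nrn1) and 9 further genes for neural surface proteins that are held to the membrane by a glycosylphosphatidylinositol (GPI) anchor, namely Cd24a, Thy1, Lsamp, Ntm, Opcml, Negr1, Cntn1, Prnp and Rtn4r, were followed in the mouse pheochromocytoma lines MTT and MPC. These 10 genes are 10 of the 19937 genes measured, and each was read by 1 probe set that carries only its symbol. Nrn1 and Cd24a were chosen by their measured difference between the lines on these same arrays, so their differences are given as a description without a test. The other 8 were taken as well-known members of the same class of proteins and were tested in the fit over all genes.

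MTT cells descend from MPC cells through tumors seeded in the liver, and are the quickly growing, more aggressive model of the pair. MPC cells are a well-differentiated line from a pheochromocytoma of a Nf1 knock-out mouse, so both lines go back to tumor cells of the same Nf1 knock-out background and neither is normal adrenal medulla. Each line was represented by 3 untreated samples, each on 1 Affymetrix Mouse Gene 1.0 ST array, and the comparison addresses how the metastasis-derived line differs from the line it came from. The methods describe the MTT samples but not the MPC arrays, the source field of the labels is the same on all 6 samples, and the MPC group rests on sample titles and cell type. The methods call the MTT samples separate without saying whether they were separate cultures, and nothing is said of the MPC samples, so the p-values measure only the spread between these samples.

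Proteins held to the membrane only by this anchor have no part inside the cell. The chain is cut near its end in the endoplasmic reticulum, a ready-made glycolipid is attached to it, and p24 cargo receptors carry it towards the surface, where it gathers in cholesterol-rich membrane domains and signals through transmembrane partners and Src-family kinases. Phospholipases can cut the anchor and release the protein. On neurons such proteins serve in adhesion, axon guidance, neurite growth and the response to trophic factors. An array measures messenger RNA, so neither the amount of protein on the surface nor the state of its anchor is known here.

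Values are log2 signals, and a difference is the MTT mean minus the MPC mean, so that a difference of 1 is a doubling of signal in MTT. Median signals of the arrays were 7.73 to 7.76 in MTT and 7.73 to 7.77 in MPC. Over all genes, 1569 passed limma's test at an adjusted p under 0.05, which is 7.87% of those tested (20.5% had an unadjusted p under 0.05), with 784 higher in MTT (3.93%) and 785 lower (3.94%). The MTT and MPC arrays did not overlap for 5418 genes (27.2%), and the median difference over all genes was -0.01. The chromaffin markers Th, Dbh, Chga, Chgb and Ddc had high signals in both lines, 12.03 to 13.46 in MTT and 12.11 to 13.49 in MPC. Of these 5, Chgb was lower in MTT (-0.15, limma adjusted p = 0.0233) and 4 did not pass, and their summed log2 signal was 63.7 to 63.9 in MTT and 64.0 to 64.1 in MPC; its part in the results below was not tested. Of 25 markers of adrenal cortex, glia, fibroblasts, leukocytes, endothelium and hepatocytes, 0 passed the limma test and 1 had an unadjusted p under 0.05, and 23 lay below the median signal of all genes.

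Nrn1 is a small secreted or membrane-held protein that neurons make in response to activity and neurotrophins, and it promotes the growth of neurites and the maturing of synapses. Its log2 signal was 6.75, 6.68 and 6.60 on the MTT arrays, against 9.38, 9.33 and 9.36 on the MPC arrays. All MTT arrays were far below all MPC arrays, with a gap of 2.58 between the nearest arrays of the lines. The mean was 6.68 ± 0.08 in MTT and 9.36 ± 0.03 in MPC (SD, n = 3 each), a difference of -2.68, or a 6.42-fold lower signal in MTT. That is the lowest difference of the 19937 genes. The MTT signal lay below the median gene signal of 8.28 and was not shown to be above background, and since signals near background are compressed, the fold may be understated. Whether fewer cells carried the transcript or each cell carried less of it cannot be told apart in such bulk RNA.

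Cd24a, the heat stable antigen, is a short and heavily glycosylated protein found on immature neurons, lymphocytes and many tumor cells, and a ligand of P-selectin and Siglec receptors. Its log2 signal was 11.76, 11.77 and 11.78 in MTT, against 10.56, 10.44 and 10.44 in MPC. The MTT arrays lay together above all MPC arrays, with a gap of 1.20. The mean was 11.77 ± 0.01 in MTT and 10.48 ± 0.07 in MPC (SD, n = 3 each), a difference of 1.29, or 2.45-fold, which was the 8th highest of all genes. Nrn1 and Cd24a thus moved in opposite directions between the lines.

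**Figure D1:**
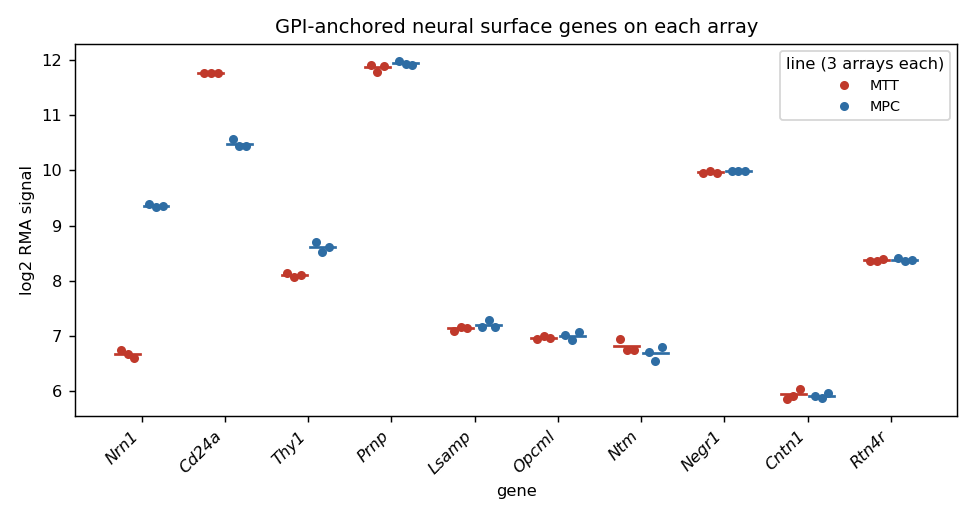
Log2 signal (vertical axis) of the 10 genes on each array, with MTT points at the left and MPC points at the right of each gene and a bar at the mean of 3 arrays. The lines do not overlap for Nrn1, Cd24a and Thy1, with Nrn1 at 6.68 in MTT and 9.36 in MPC, and they overlap for the other 7 genes.

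Thy1, an immunoglobulin-fold protein abundant on mature neurons and thymocytes and also made by fibroblasts, fell in MTT. Its log2 signal was 8.14, 8.07 and 8.11 in MTT, against 8.70, 8.52 and 8.60 in MPC. All MTT arrays were below all MPC arrays, by 0.38 at the nearest. The mean was 8.11 ± 0.03 in MTT and 8.61 ± 0.09 in MPC (SD, n = 3 each), a difference of -0.50 (SE 0.05, limma adjusted p = 0.000638), or a 1.42-fold lower signal, the 78th lowest of all genes. The MTT signals lay below the median gene signal of 8.28 and were not shown to be above background, so this fold too may be understated. The summed log2 signal of 5 fibroblast markers was 38.2 to 38.5 in MTT and 38.2 to 38.8 in MPC. That of 5 leukocyte markers was 30.7 to 30.9 in MTT and 30.4 to 31.0 in MPC. For 4 endothelial markers it was 27.5 to 27.7 in MTT and 27.2 to 28.0 in MPC, and among them Pecam1 differed by -0.15 (limma adjusted p = 0.139). Most of these markers lay below the median gene signal of 8.28, and the part of other cells in the fall of Thy1 was not tested.

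Thy1 was the only one of the 8 genes not chosen by their difference that passed the limma test, which is 12.5% of them beside 7.87% of all genes and, for genes lower in MTT, 3.94%. It was also the only one with an unadjusted p under 0.05. For the other 7 the MTT and MPC arrays overlapped, the differences ran from -0.07 to 0.13, and limma's adjusted p ran from 0.387 to 0.940. Their 95% intervals lay between -0.18 and 0.30, so that changes larger than 1.13-fold lower or 1.23-fold higher in signal were outside all 7 intervals. Those intervals are on the compressed scale of the array. For Lsamp, Ntm, Opcml and Cntn1 the signals lay below the median gene and were not shown to be above background. The signal of Rtn4r lay barely above the median gene. Over all 10 genes the median difference was -0.03.

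The IgLON proteins are cell adhesion molecules with immunoglobulin domains that bind one another in pairs on neighbouring neurons, and 4 of the genes followed belong to them. Lsamp, the limbic system-associated protein, had signals of 7.09, 7.17 and 7.15 in MTT, against 7.15, 7.29 and 7.17 in MPC (difference -0.07, limma adjusted p = 0.465). Opcml, first known as an opioid-binding protein, had 6.94, 6.99 and 6.96 in MTT, against 7.02, 6.94 and 7.07 in MPC (difference -0.04, limma adjusted p = 0.644). In both genes the arrays of the lines were interleaved.

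Ntm, or neurotrimin, lies next to Opcml on chromosome 9 among the genes measured. Its signal was 6.94, 6.75 and 6.74 in MTT, against 6.70, 6.55 and 6.80 in MPC. The first MTT array was above the others and the second MPC array below them, and the difference of 0.13 did not pass the test (95% interval -0.04 to 0.30, limma adjusted p = 0.387). Its pooled SD of 0.120 was the largest of the 10 genes and more than that of 94.5% of all genes. Negr1, a neuronal growth regulator, had 9.952, 9.985 and 9.955 in MTT, against 9.996, 9.985 and 9.990 in MPC, where the lines met at 9.985 (difference -0.03, limma adjusted p = 0.713). It was the only one of these 4 with a signal above the median gene. Iglon5, the remaining member of the family, averaged 9.04 in MTT and 9.02 in MPC, also above the median gene, and differed by 0.01, and so 0 of 5 IgLON genes passed the limma test and 0 had an unadjusted p under 0.05.

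Cntn1, or contactin 1, joins axons to glia at the borders of the node of Ranvier together with Cntnap1. Its signal was 5.86, 5.92 and 6.05 in MTT, against 5.92, 5.88 and 5.97 in MPC, and the arrays were interleaved (difference 0.02, limma adjusted p = 0.875). Rtn4r, the Nogo receptor, which binds inhibitors of axon growth in myelin, had 8.37, 8.36 and 8.39 in MTT, against 8.41, 8.35 and 8.38 in MPC (difference -0.01, limma adjusted p = 0.940). Prnp, the prion protein, had 11.92, 11.79 and 11.89 in MTT, against 11.99, 11.92 and 11.91 in MPC. For Prnp 2 of the MTT arrays lay below all MPC arrays and the first was level with the lower MPC arrays, and the difference of -0.07 did not pass the test (95% interval -0.18 to 0.03, limma adjusted p = 0.392).

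**Figure D2:**
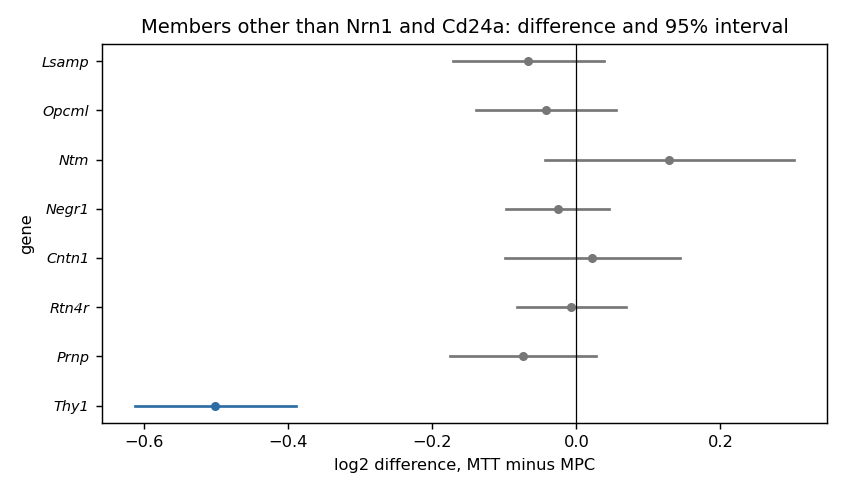
Difference in log2 signal, MTT minus MPC (horizontal axis), with its 95% interval for the 8 genes that were not chosen by their difference, from 3 arrays of each line. Thy1 lies at -0.50, and the intervals of the other 7 genes include 0.

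Other genes for GPI-anchored surface proteins did not move as a block. A list of 54 other GPI-anchored surface genes known from the nervous system had 50 measured, of which 3 rose, 5 fell and 42 did not pass the limma test. That is 16% called beside 7.87% of all genes, and 13 had an unadjusted p under 0.05, or 26.0% beside 20.5% of all genes. The arrays of the lines did not overlap for 5 higher and 9 lower genes of the 50, and the median difference of the 50 was -0.003. Over all 19937 genes the arrays did not overlap for 2338 higher and 3080 lower genes (27.2% in both directions together). The 42 genes not past the test differed by -0.12 to 0.15.

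The largest fall among them was in Rtn4rl1, a Nogo receptor relative that binds chondroitin sulfate proteoglycans. Its log2 signal was 8.60, 8.61 and 8.57 in MTT, against 9.36, 9.29 and 9.30 in MPC, and the difference was -0.73 (SE 0.03, limma adjusted p = 1.79e-05). The lines were widely apart, while the other two Nogo receptor genes were level: Rtn4rl2 averaged 9.21 in MTT and 9.23 in MPC (difference -0.02, limma adjusted p = 0.808), and Rtn4r is given above. Nrn1l, the only close relative of Nrn1, was likewise at 8.22 ± 0.03 in MTT and 8.24 ± 0.02 in MPC (SD, n = 3 each), with a difference of -0.03 (limma adjusted p = 0.743).

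The co-receptors of the GDNF family, which bind a trophic factor and present it to the kinase Ret, split by member. Gfra1, the GDNF receptor, had signals of 11.31, 11.24 and 11.30 in MTT, against 11.74, 11.75 and 11.67 in MPC, and fell by 0.44 on the log2 scale (limma adjusted p = 0.000354). Gfra2, the neurturin receptor, had 10.12, 10.11 and 10.19 in MTT, against 9.81, 9.67 and 9.64 in MPC, and rose by 0.43 (limma adjusted p = 0.00186). In both genes the lines did not overlap, and Gfra3 and Gfra4 did not pass the test. Gfra1 lies on chromosome 19, where 111 of 675 measured genes were lower in MTT and 7 higher.

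Mdga2, which binds neuroligins and limits the forming of synapses, rose most in the list. Its signal was 9.71, 9.79 and 9.70 in MTT, against 8.86, 8.94 and 8.78 in MPC, a difference of 0.87 (SE 0.05, limma adjusted p = 2.62e-05). All MTT arrays were above all MPC arrays, whereas Mdga1 averaged 7.97 in MTT and 7.98 in MPC (difference -0.02, limma adjusted p = 0.838). Cd55, which guards cells against complement, rose by 0.39 with a mean of 5.97 ± 0.03 in MTT and 5.58 ± 0.05 in MPC (SD, n = 3 each, limma adjusted p = 0.000724), signals low on the scale of these arrays.

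Of the 6 small Ly6-fold genes Ly6e, Ly6h, Lynx1, Lypd1, Lypd6 and Lypd6b, 2 fell, beside 3.94% of all genes. Cd59a (difference 0.07, limma adjusted p = 0.518) and Plaur (difference -0.01, limma adjusted p = 0.949), also with this fold, were outside that count and did not pass. Lypd1, a modulator of nicotinic acetylcholine receptors, averaged 8.39 ± 0.09 in MTT and 8.83 ± 0.04 in MPC (difference -0.44, limma adjusted p = 0.00148). Ly6e, an interferon-induced protein, averaged 8.43 ± 0.06 in MTT and 8.85 ± 0.07 in MPC (SD, n = 3 each, difference -0.42, limma adjusted p = 0.00161). The fifth fall was in Bst2, or tetherin, at -0.16 with a limma adjusted p of 0.0486, and that call was lost when any of 5 of the 6 arrays was left out. None of 6 contactins passed (0 with an unadjusted p under 0.05, differences -0.05 to 0.08), nor did any of 6 glypicans (2 unadjusted, -0.12 to 0.15) or of 5 ephrin-A genes (2 unadjusted, -0.12 to 0.11).

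**Figure D3:**
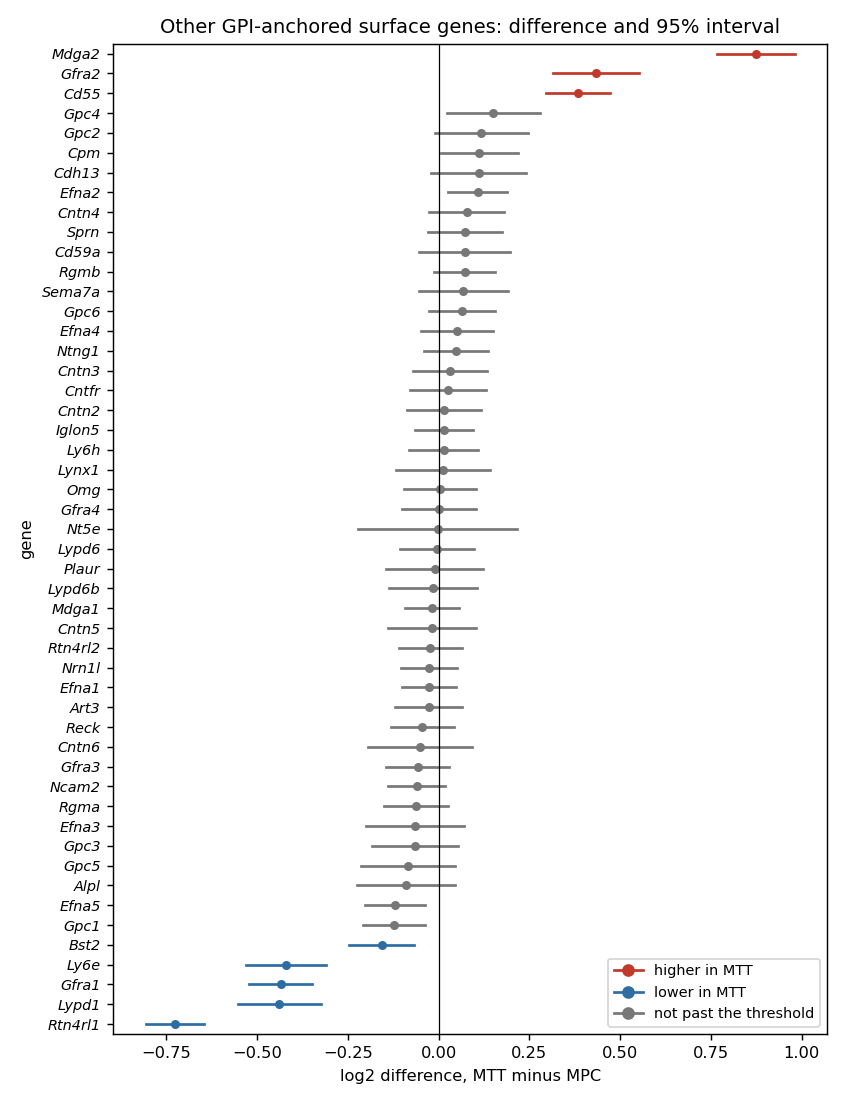
Difference in log2 signal, MTT minus MPC (horizontal axis), with 95% intervals for 50 other GPI-anchored surface genes, 3 arrays of each line. Mdga2, Gfra2 and Cd55 (red) lie above 0 and Rtn4rl1, Lypd1, Gfra1, Ly6e and Bst2 (blue) below it, and the 42 genes in grey, which did not pass the test, lie between -0.12 and 0.15.

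The genes that build, attach, transport and trim the GPI anchor were called at about the share of all genes. Of 39 such genes, all measured and 36 of them above the median signal, 1 rose, 2 fell and 36 did not pass the limma test, which is 7.69% called beside 7.87% of all genes. The arrays of the lines did not overlap for 3 higher and 10 lower genes of the 39. Over all 19937 genes these counts were 2338 higher and 3080 lower (27.2% in both directions together). The 36 differed by -0.17 to 0.12. Piga, of the enzyme for the first step of synthesis, differed by -0.09 (limma adjusted p = 0.385), and Pigk, of the transamidase that attaches the anchor, by -0.17 (limma adjusted p = 0.105).

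Gpld1, a phospholipase D that cuts GPI anchors, fell. Its signal was 8.93, 8.97 and 8.88 in MTT, against 9.51, 9.52 and 9.41 in MPC, a difference of -0.55 (SE 0.04, limma adjusted p = 0.000233). All MTT arrays lay below all MPC arrays. Tmed9, a p24 cargo receptor, rose with a mean of 9.76 ± 0.005 in MTT and 9.48 ± 0.05 in MPC (SD, n = 3 each, difference 0.29, limma adjusted p = 0.00239). The second gene to fall was Pgap6, of a phospholipase that sheds anchored proteins, at -0.18 (limma adjusted p = 0.0425), a call lost when any of 5 of the 6 arrays was left out.

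Ligands and partners of the 10 proteins were more mixed, with 25 of 26 measured, 4 higher, 2 lower and 19 not past the limma test (24% called beside 7.87% of all genes). Tnr, or tenascin-R, a matrix ligand of contactin 1, had 10.91, 10.89 and 10.94 in MTT, against 10.45, 10.46 and 10.39 in MPC, and rose by 0.48 (limma adjusted p = 0.000123). L1cam, an adhesion molecule that binds CD24, averaged 10.12 ± 0.04 in MTT and 9.82 ± 0.06 in MPC (SD, n = 3 each) and rose by 0.30 (limma adjusted p = 0.00419). Cntnap2, a relative of the contactin 1 partner Cntnap1, fell with a mean of 8.65 ± 0.04 in MTT and 9.18 ± 0.07 in MPC (SD, n = 3 each, difference -0.53, limma adjusted p = 0.00032). Cntnap1 itself averaged 9.95 in MTT and 9.97 in MPC and did not pass (limma adjusted p = 0.768).

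Of the proteins that form the signalling complex of the Nogo receptor, Tnfrsf19 (TROY) rose, at 8.53 ± 0.05 in MTT and 8.11 ± 0.01 in MPC (SD, n = 3 each, difference 0.41, limma adjusted p = 0.000433). The co-receptors Lingo1 (difference 0.03, limma adjusted p = 0.732) and Ngfr (difference -0.02, limma adjusted p = 0.819) and the ligand Rtn4, or Nogo (difference 0.05, limma adjusted p = 0.500), did not pass. Thy1 binds integrin alpha-v beta-3 together with syndecan-4. Here Itgb3 rose by 0.28 (7.96 ± 0.02 in MTT and 7.69 ± 0.01 in MPC, SD, n = 3 each, limma adjusted p = 0.00137). Both Itgb3 means lay below the median gene and were not shown to be above background. Sdc4 fell by 0.46 on the log2 scale (8.84 ± 0.06 in MTT and 9.31 ± 0.09 in MPC, SD, n = 3 each, limma adjusted p = 0.00159), while Itgav differed by -0.13 (limma adjusted p = 0.0569). Ncam1, whose GPI-anchored and transmembrane forms the probe set cannot tell apart, averaged 12.13 in MTT and 12.12 in MPC (limma adjusted p = 0.893).

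The scaffold and kinases of the membrane domains where these proteins gather were measured for 10 of 11 genes, with 2 higher, 0 lower and 8 not past the limma test (20% called beside 7.87% of all genes, and 3 with an unadjusted p under 0.05, 30.0% beside 20.5%). Cav2, a caveolin, had 7.37, 7.23 and 7.22 in MTT, against 6.38, 6.24 and 6.25 in MPC, a difference of 0.98 (SE 0.05, limma adjusted p = 3.13e-05). The lines were well apart, although both sets of signals lay below the median gene. Src, the other gene called, differed by 0.18 (limma adjusted p = 0.0232) and lost the call when any of 5 of the 6 arrays was left out. The flotillins were level: Flot1 averaged 10.78 in MTT and 10.77 in MPC, and Flot2 differed by -0.01 (limma adjusted p = 0.885). Fyn, the kinase classically tied to Thy1 and contactin 1, differed by -0.16 (limma adjusted p = 0.0518).

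**Figure D4:**
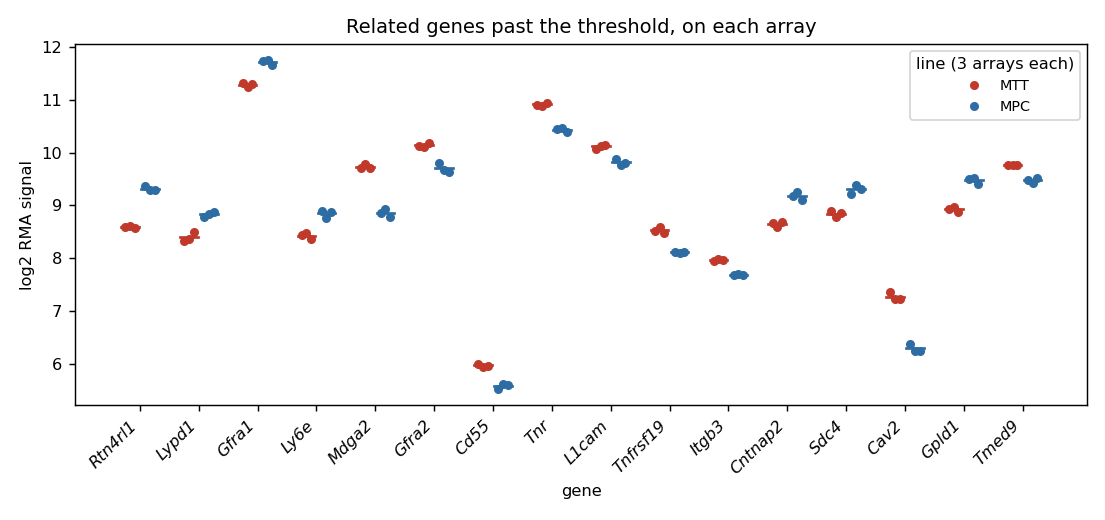
Log2 signal (vertical axis) on each array of the 16 related genes, of 19 called in the 4 lists of GPI-anchored genes, anchor genes, partners and membrane scaffold, that kept the call when any 1 array was left out. MTT points are left and MPC points right, with a bar at the mean of 3 arrays, and in all 16 genes the lines do not overlap.

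Since neurons switch on Nrn1 with activity, 17 genes known for such regulation were set beside it. Of these, 2 rose, 5 fell and 10 did not pass the limma test, 41.2% called beside 7.87% of all genes, and 12 had an unadjusted p under 0.05 (70.6% beside 20.5%). The transcription factor Fos had 8.55, 8.40 and 8.45 in MTT, against 9.28, 8.93 and 9.09 in MPC, a difference of -0.63 (limma adjusted p = 0.00342), and Fosb (-0.33, limma adjusted p = 0.0183), Egr1 (-0.32, limma adjusted p = 0.0375), the synaptic scaffold gene Homer1 (-0.22, limma adjusted p = 0.0106) and Junb (-0.20, limma adjusted p = 0.0487) were also lower. The kinase gene Plk2 rose by 0.55 (9.91 ± 0.03 in MTT and 9.36 ± 0.05 in MPC, SD, n = 3 each, limma adjusted p = 0.000108) and the nuclear receptor gene Nr4a2 by 0.22 (limma adjusted p = 0.0171). Arc (0.02), Npas4 (0.05), Nptx2 (0.02) and the neurotrophin gene Bdnf (0.12, limma adjusted p = 0.109) did not pass. With variances taken gene by gene, 1 gene of the list was higher and 0 were lower, and leaving out 1 array at a time left 1 to 4 lower. The call of Junb was then lost in all 6 fits, that of Egr1 in 5 (all but the fit without the second MPC array), that of Fosb in 4, that of Nr4a2 in 3 and that of Homer1 in 1, the fit without the second MTT array. In both lines Fos, Fosb, Egr1 and Junb were highest on the first array. With the replicate number as a block, all 5 lower genes kept their calls (limma adjusted p = 0.00116 for Fos, 0.0103 for Fosb, 0.0182 for Egr1, 0.0226 for Junb and 0.0280 for Homer1).

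The neighbours of Nrn1 did not share its fall. Nrn1 lies on chromosome 13, where 249 of 732 measured genes were higher in MTT and 12 lower, with a median difference of 0.08, or 0.20 for genes above the median signal. Nrn1, Gpld1 and Homer1 are 3 of those 12, while Plk2 and Tmed9 are among the 249. Of the 5 measured genes on either side of Nrn1, the adjacent Fars2 (0.17, limma adjusted p = 0.0185) and Lyrm4 (0.16, limma adjusted p = 0.0232) were higher, 0 were lower, and the 10 ranged from -0.11 at F13a1, the adjacent gene on the other side, to 0.20 at Cdyl.

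For Cd24a, on chromosome 10, 0 of the 10 neighbours passed the limma test and they ranged from -0.16 to 0.09. For Thy1, on chromosome 9, the adjacent Usp2 fell as well (-0.31, limma adjusted p = 0.012), Mcam, another surface glycoprotein gene, rose (0.36, limma adjusted p = 0.000964), and the median of the 10 was 0.01.

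**Figure D5:**
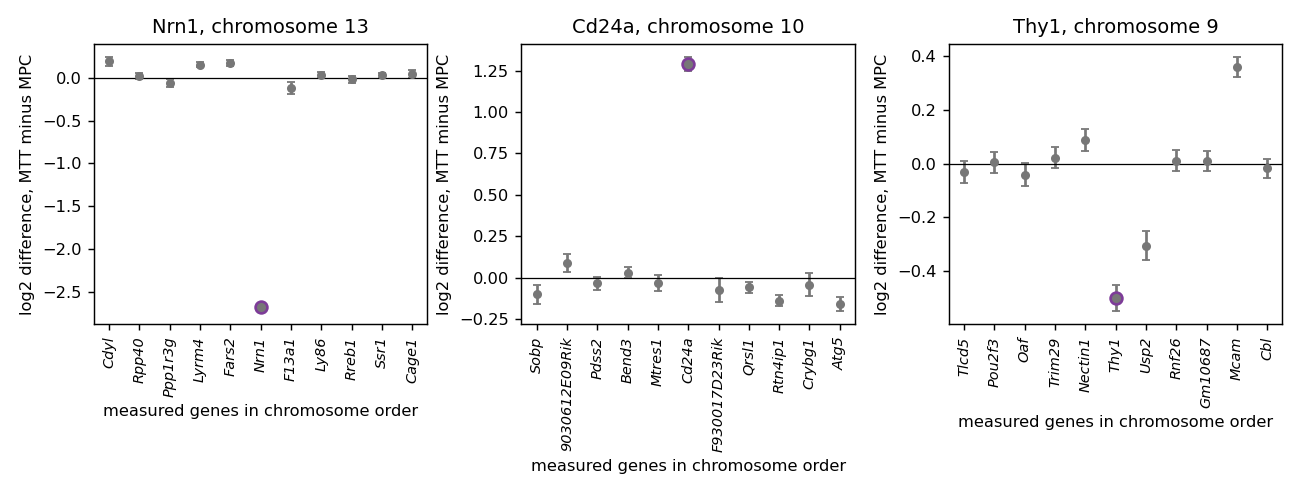
Difference in log2 signal, MTT minus MPC (vertical axes, each on its own scale), of Nrn1, Cd24a and Thy1 (larger purple points) and of the 5 measured genes on each side in chromosome order, with bars of 1 SE. Nrn1 at -2.68 and Cd24a at 1.29, both chosen by their difference on these arrays, stand away from their neighbours. Thy1 at -0.50 lies beside Usp2 at -0.31.

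The genes whose signal followed that of Nrn1 most closely over the 6 arrays, among 60 genes that spanned 1 or more on the log2 scale, were Efemp1, a matrix glycoprotein gene (Pearson's r 0.999, difference -1.13), the neuronal nitric oxide synthase gene Nos1 (0.998, -0.93), the transcription cofactor gene Lmo4 (0.997, -1.17), Emp1 (0.995, -0.92) and the thyrotropin receptor gene Tshr (0.995, -1.59). Those closest to Cd24a were Sntg1 (0.999, difference 0.99), the imprinting factor gene Zfp57 (0.998, 1.39), Igsf21 (0.998, 1.02), Ptchd1 (0.997, 0.93) and neuronatin, Nnat (0.997, 1.72). The 6 arrays fall into 2 lines, so these correlations describe the difference between lines over again.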

How the data were processed

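Gene expression was measured in 3 MTT and 3 MPC samples, each on 1 array. The authors deposited log2 values made by RMA (background correction, quantile normalization and 1 summary value for each probe set). RMA was run in Partek and R according to the methods, and the submitters' processing notes list Affymetrix Expression Console and RMA; their versions and the genome build were not given in the sources used here.

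From these values, MTT and MPC cells were compared here with limma 3.58.1 (lmFit and eBayes, two-sided) in R 4.3.3, with the data.table package (1.17.8), over 19937 genes, with Benjamini-Hochberg adjustment and a threshold of 0.05. Of 34760 probe sets, 21640 carried a single symbol, 1321 several and 11799 are not named here; 21553 of the 21640 matched RefSeq (assembly GRCm38.p6), used for names, chromosomes and neighbour order only. For 954 genes with several probe sets the brightest was used. Matplotlib 3.10.9 under Python 3.11.15 drew the figures. The number of arrays limits the precision, and no detection calls or scan batches were given.

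The 10 genes and all lists were chosen with earlier results of these data known. The text names every one of the 10, the genes of each list past the threshold (at most 6 in each direction by p), the 5 closest patterns to Nrn1 and to Cd24a, and neighbours of Nrn1. Genes of the lists that did not pass the test and neighbours of Thy1 were named for their role or place, after their values were seen. Alternatives were 2 variance models, a replicate block, 2 summaries of probe sets, a filter on dim genes, 2 further normalizations and leaving out each array.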

Additional observations from a re-analysis of the deposited data

How the results depend on the processing

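Under all alternatives that were run, the difference of Thy1 stayed past the threshold (-0.54 to -0.46, limma adjusted p 2.05e-05 to 0.0318), Nrn1 stayed at -2.72 to -2.64 and Cd24a at 1.27 to 1.33, and the number of called genes among the other 8 stayed at 1. The differences of Cntn1 (-0.03 to 0.06) and Rtn4r (-0.02 to 0.01) changed sign without passing the test. No called gene changed direction. With a mean-variance trend, 2416 genes were called in all and 1302 were lower, 2 anchor genes were higher and 4 lower, and 1 scaffold gene was lower. With ordinary variances, 824 were called, 428 higher and 396 lower; 2 anchor genes were higher and 1 lower, 1 scaffold gene was higher, and of the activity genes 1 was higher and 0 lower. With genes above the median signal only, 9968 genes were tested, of which 2207 were called and 1195 were lower. That is a larger share than the 785 lower of 19937 in the main fit. In that setting 2 anchor genes were higher and 4 lower, 4 partners lower, and 1 scaffold gene higher and 1 lower. With cyclic loess, 2 anchor genes were higher. For the anchor list the main counts were 1 higher and 2 lower. Cav2, Pgap6, Cd55, Itgb3 and Junb, all called in the main fit, lay below the median signal, so the filter on dim genes left them out. It also left out Nrn1, Lsamp, Ntm, Opcml and Cntn1, so their differences were not refitted in that setting. The cause of the other moves was not tested.

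Leaving out 1 array at a time gave 891 to 1276 calls, 462 to 617 higher and 429 to 659 lower, from fewer arrays. The other GPI-anchored genes then had 3 higher and 4 to 5 lower, the anchor genes 1 higher and 1 to 2 lower, the partners 4 higher and 2 lower, the scaffold genes 1 to 2 higher and 0 lower, and the activity genes 1 to 2 higher and 1 to 4 lower. The calls of Bst2, Pgap6, Src, Junb, Egr1, Fosb, Nr4a2, Homer1 and Fos were lost under some alternatives (51 times), and in the other 415 pairs of a tested gene and a setting the side of the threshold stayed the same.

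With the replicate number as a block, 1501 genes were called, 755 higher and 746 lower. Bst2 (limma adjusted p = 0.0711) and Pgap6 (0.0661) lost their calls. Samples of the same number deviated together with correlations of 0.116, 0.0735 and 0.249. Those of different numbers had correlations of -0.161 to 0.0659, and every sample correlated best with its own number. Whether samples of the same number shared their handling was not tested, and the main fit did not pair them. Signals below the median gene are not shown to be above background, so small differences of Lsamp, Ntm, Opcml and Cntn1 may not be detectable with these arrays. The same may hold for Rtn4r, at 8.37 in MTT and 8.38 in MPC. Its signal lay barely above the median gene and below that of the fibroblast marker Col1a1 (8.73 in MTT and 8.76 in MPC).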
